A study of Saccharomyces cerevisiae and Saccharomyces kudriavzevii and Saccharomyces uvarum with 18 samples.

Results

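S. kudriavzevii IFO 1802 was compared with S. cerevisiae Fermol cryophile, a commercial wine strain, in wine fermentations of Tempranillo must. The comparison used the 12 of 18 two-colour arrays whose titles name either strain, 6 arrays of S. kudriavzevii and 6 of Fermol cryophile. The groups were S. kudriavzevii at 12°C, Fermol cryophile at 12°C, S. kudriavzevii at 28°C and Fermol cryophile at 28°C, each with 3 arrays lettered A, B and C. On every array the strain was labelled with Cy3 and S. cerevisiae Lalvin T73, a wine strain fermented at the same temperature, with Cy5. The study describes both compared strains as cryotolerant and T73 as mesophilic. Cells were collected at the beginning of stationary phase. The difference between both strains at a temperature removes T73, provided that T73 behaved alike on those arrays. The question was which genes differed between the species in the same direction at 12°C and at 28°C. Each species was represented by a single strain, so that strain and species cannot be told apart. Dyes were never exchanged.

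S. kudriavzevii is a cryotolerant relative of S. cerevisiae known from oak bark and as a parent of hybrid wine yeasts. S. cerevisiae is the usual wine yeast, and its wine strains are known for resistance to copper and sulfite, which are used in vineyards and cellars. Several gene families that differ between yeast strains lie near chromosome ends, among them the seripauperins (PAU), small cell wall mannoproteins tied to anaerobic and cold growth, the COS genes, which encode membrane proteins, and the MAL loci for maltose use. Members of such families have nearly the same sequence, so that a spot of one also binds the transcripts of its relatives.

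A value is the log2 ratio of strain over T73, and a difference is the value of S. kudriavzevii minus that of Fermol cryophile, so that a difference of 1 is a 2-fold higher ratio in S. kudriavzevii. No source gives the numerator of the deposited ratio. The sign was set from the labelled dyes and from the directions of change described in the study for single genes, which all had the sign used here and none the deposited one, and this direction is the likely one. The arrays held 5675 to 6167 values each, and their standard deviation across genes lay between 0.63 (Fermol cryophile, 28°C, replicate C) and 1.99 (S. kudriavzevii, 12°C, replicate B). Across genes, arrays of the same strain and temperature had a median Pearson r of 0.475 at 12°C and 0.176 at 28°C. Between the strains at the same temperature it was 0.423 at 12°C and 0.099 at 28°C. Fermol cryophile 28°C replicate C correlated with replicates A and B at only 0.087 and 0.028. Arrays of different temperatures correlated below -0.3 in 7 of 36 pairs, with a lowest Pearson r across genes of -0.618 between arrays of the same strain. Each of these pairs held Fermol cryophile 28°C replicate A or B. The direction of these arrays was kept because the dyes are stated. Directions named in the study were compared with medians over replicates, which cannot check a single array. Why these pairs ran opposite was not tested. The spots are PCR products of S. cerevisiae S288C ORFs. The study reports from DNA hybridisations that most S. kudriavzevii genes hybridised on these arrays. What weaker hybridisation of S. kudriavzevii transcripts adds to a negative difference was not separated here from transcript level. The methods mention a pair of independent fermentations for the collection of cells and 3 experiments for the arrays, so p-values may partly measure technical spread.

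No gene passed the test averaged over both temperatures. With limma and Benjamini-Hochberg adjustment, 0 of 6116 genes had an adjusted p below 0.05, and 529 genes (8.65% of those tested) had an unadjusted p below 0.05, 284 higher (4.64%) and 245 lower (4.01%) in S. kudriavzevii. The smallest adjusted p, 0.0572, was shared by CUP1-2 and by YKL131W and YLR428C, ORFs that match no annotated gene. The stricter requirement of a difference at each temperature was met by 36 genes (0.589%) at an unadjusted p below 0.05, of which 21 were higher (0.343%) and 15 lower (0.245%), and by 0 after adjustment. Without a test, the arrays of the strains did not overlap at either temperature in 76 genes that were higher (1.24%) and 66 that were lower (1.08%), of which 65 (1.24% of 5258 complete genes) and 52 (0.989%) were measured on every array, while in 56 genes (0.916%) they were apart in opposite directions. Medians differed at least 2-fold in the same direction at both temperatures in 174 genes that were higher (2.84%) and 121 that were lower (1.98%), and in opposite directions in 205 (3.35%).

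The strain differences at 12°C and 28°C were weakly related. Of the 6116 genes, 3204 (52.4%) had the same sign at both temperatures, and across genes, which are not independent replicates, the differences correlated with a Pearson r of 0.074. The median difference over all genes was 0.16 at 12°C and -0.09 at 28°C. The median standard error was 0.49 for the averaged difference and 0.70 for a single temperature.

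**Figure D1:**
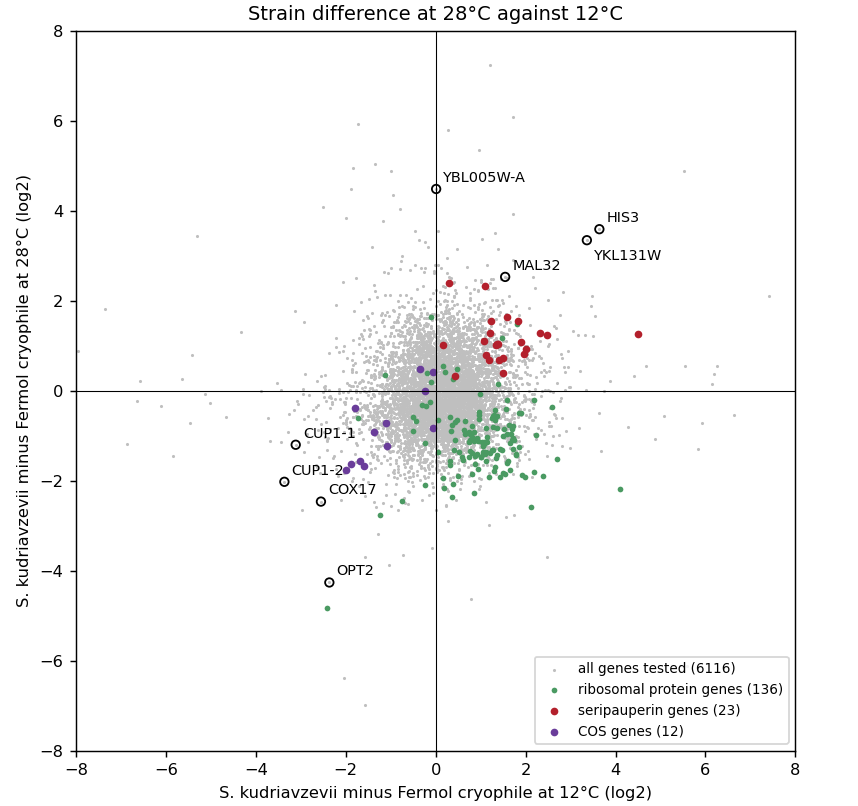
Log2 difference of S. kudriavzevii minus Fermol cryophile at 12°C (horizontal axis) and at 28°C (vertical axis), 1 point per gene tested (6116, of which 3 lie outside the axes). Seripauperin genes lie in the upper right, most COS genes and CUP1-2, COX17 and OPT2 in the lower left, and most ribosomal protein genes in the lower right.

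CUP1-2, a metallothionein that binds copper, had the smallest p among the lower genes. At 12°C the S. kudriavzevii arrays read -0.14, -2.70 and -3.11, and the Fermol cryophile arrays 1.61, 1.63 and 0.91. At 28°C they read -1.07, -1.59 and -0.93 in S. kudriavzevii and 1.66, 0.68 and 0.12 in Fermol cryophile. All S. kudriavzevii arrays were below T73 and all Fermol cryophile arrays above it. The averaged difference of CUP1-2 was -2.69 (SE 0.47, 95% confidence interval -3.69 to -1.70, n = 3 per group), a 6.46-fold lower ratio, with a limma adjusted p of 0.0572. CUP1-2 passed the threshold when S. kudriavzevii 12°C replicate A, its highest S. kudriavzevii array, was left out (adjusted p 0.00208).

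Its near-identical copy CUP1-1 followed the same course without a clean separation at 28°C, where replicate C of S. kudriavzevii read 0.76 and lay among the Fermol cryophile arrays, which spanned 0.10 to 1.37. The difference of CUP1-1 was -3.11 at 12°C and -1.20 at 28°C, with an average of -2.15 (SE 0.51, limma adjusted p 0.224). YHR054C, an uncharacterised ORF that lies between the CUP1 copies in the annotation, lay between -2.24 and -0.67 in S. kudriavzevii and was at 0.54, -0.02 and 0.68 in Fermol cryophile at 12°C. At 28°C YHR054C was at -0.01, -1.25 and -0.49 in S. kudriavzevii and 1.24, 1.28 and 2.04 in Fermol cryophile, which gave an averaged difference of -1.90 (SE 0.44). The strains did not overlap for YHR054C at either temperature. The 3 ORFs share one repeated locus and are not independent measurements.

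COX17, the copper chaperone of cytochrome c oxidase, had nearly equal differences at both temperatures. It read -3.79, -2.03 and -2.03 in S. kudriavzevii and -0.98, -0.16 and 0.95 in Fermol cryophile at 12°C, and -0.55, -1.02 and 0.21 against 2.30, 2.09 and 1.63 at 28°C. The differences were -2.55 at 12°C and -2.46 at 28°C (average -2.51, SE 0.59, limma adjusted p 0.224). The strains were apart at both temperatures, although both strains read higher against T73 at 28°C than at 12°C.

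Of the 14 genes listed for copper and sulfite resistance, 3 were lower (both CUP1 copies and SSU1) and 2 higher at an unadjusted p below 0.05, against 4.01% lower and 4.64% higher of all genes, and the list had a median of -0.39 against 0.05 over all genes. SSU1, the sulfite pump, was at -2.40, -2.36 and -2.78 in S. kudriavzevii and -1.30, -1.35 and -0.80 in Fermol cryophile at 12°C. At 28°C SSU1 overlapped, with -2.55, -1.62 and 0.20 in S. kudriavzevii and 0.68, 1.10 and -1.57 in Fermol cryophile. Its averaged difference was -1.38 (SE 0.59, limma adjusted p 0.546). SOD1, the copper-zinc superoxide dismutase, ran the other way with an averaged difference of 1.52 (SE 0.55), 1.08 at 12°C and 1.96 at 28°C, and its strains overlapped at 12°C.

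**Figure D2:**
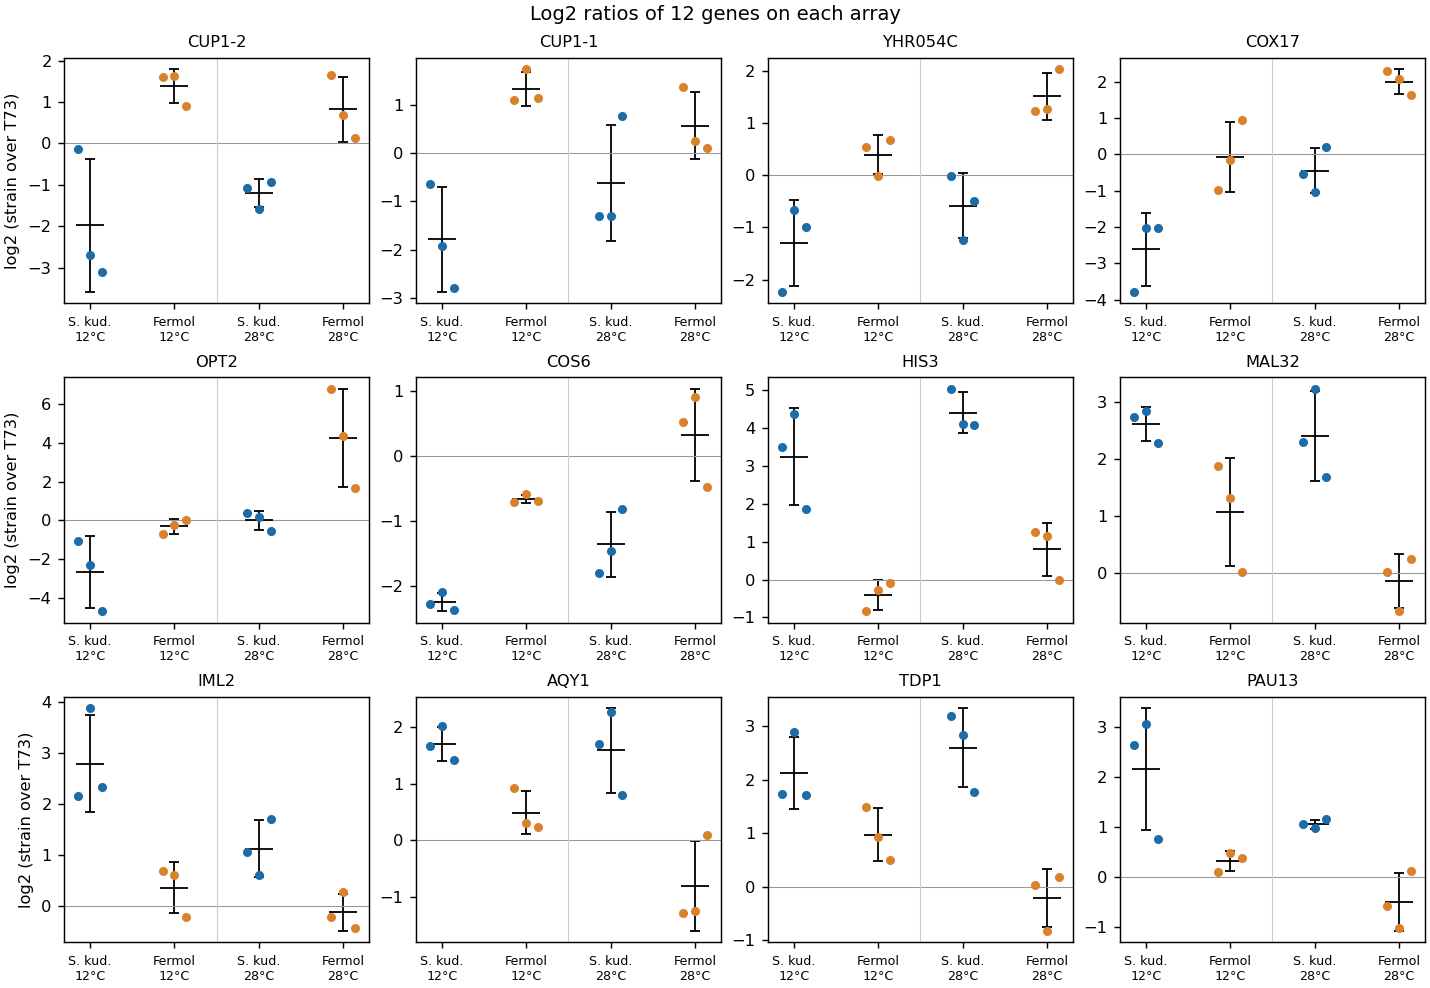
Log2 ratio of strain over T73 on each array for 12 genes, with the mean and the standard deviation of 3 arrays, S. kudriavzevii in blue and Fermol cryophile in orange. CUP1-2, YHR054C, COX17, OPT2 and COS6 are lower and HIS3, MAL32, IML2, AQY1, TDP1 and PAU13 higher in S. kudriavzevii. These genes were chosen for no overlap at either temperature, while CUP1-1 overlaps at 28°C.

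The largest positive difference among the leading genes was that of HIS3, which encodes imidazoleglycerol-phosphate dehydratase of histidine synthesis. HIS3 stood at 3.50, 4.37 and 1.85 in S. kudriavzevii and -0.84, -0.27 and -0.09 in Fermol cryophile at 12°C. At 28°C it stood at 5.03, 4.09 and 4.07 in S. kudriavzevii and 1.24, 1.15 and -0.01 in Fermol cryophile. The lowest S. kudriavzevii array exceeded the highest Fermol cryophile array of either temperature. The differences of 3.64 at 12°C and 3.60 at 28°C were nearly equal (average 3.62, SE 0.71, 95% confidence interval 2.13 to 5.11, a 12.3-fold higher ratio), with a limma adjusted p of 0.135.

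In each direction, 12 leading genes were taken by smallest p. They came from genes complete on the 12 arrays and apart between the strains at both temperatures, and none was called. The lack of overlap given for these genes was thus a condition of choice and not a result. The 12 higher genes had averaged differences of 1.70 to 3.62 (adjusted p 0.0572 to 0.251) and the 12 lower ones of -3.31 to -1.19 (adjusted p 0.0572 to 0.362). Of the 12 higher genes 2 matched no annotated gene, and of the 12 lower ones 1. YKL131W, the one of smallest p among them and singled out after its values were seen, differed by 3.36 at 12°C and 3.35 at 28°C (SE of the average 0.58).

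MAL32, a maltase, was at 2.74, 2.83 and 2.27 in S. kudriavzevii and 1.87, 1.31 and 0.02 in Fermol cryophile at 12°C. At 28°C it was at 2.29, 3.23 and 1.68 in S. kudriavzevii and 0.02, -0.67 and 0.24 in Fermol cryophile, so that the average of 2.04 (SE 0.44, limma adjusted p 0.176) was larger at 28°C (2.54) than at 12°C (1.55). Its paralog MAL12, which shares nearly all of its sequence, was also apart at both temperatures with an average of 1.78 (SE 0.63). Replicate B of S. kudriavzevii at 12°C gave MAL12 a value of 5.97, against 1.36 and 1.82 in the other S. kudriavzevii arrays. Of 11 genes for maltose and sucrose use, 8 had a positive difference (52.7% of all genes) and 3 an unadjusted p below 0.05 in that direction (4.64% of all genes), MPH2, an alpha-glucoside permease, being the other with 0.88 (SE 0.33). The median was 0.60. The invertase SUC2 differed by -0.02 (SE 0.34) and the maltose permease MAL31 by -0.02 (SE 0.37), both picked for being near 0.

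Among the remaining higher genes, AQY1, the spore water channel, had S. kudriavzevii values of 1.67, 2.02 and 1.42 against 0.92, 0.30 and 0.24 in Fermol cryophile at 12°C, and 1.70, 2.27 and 0.79 against -1.28, -1.25 and 0.10 at 28°C. The difference of AQY1 averaged 1.81 (SE 0.42, limma adjusted p 0.224). TDP1, a DNA repair phosphodiesterase, had an average of 1.97 (SE 0.39), with 1.14 at 12°C and 2.80 at 28°C. IML2 averaged 1.84 (SE 0.41), with the larger difference at 12°C (2.43 against 1.25 at 28°C). COQ4, of ubiquinone synthesis, averaged 2.05 (SE 0.49), and DIF1, which guides the import of a ribonucleotide reductase subunit into the nucleus, 1.75 (SE 0.43). These 5 genes were among the leading genes, which were chosen for no overlap between the strains at either temperature.

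OPT2, an oligopeptide transporter, had the largest negative difference of the leading genes and also a wide spread. At 12°C it read -1.05, -2.29 and -4.69 in S. kudriavzevii and -0.71, -0.25 and 0.02 in Fermol cryophile. At 28°C it read 0.40, 0.17 and -0.55 in S. kudriavzevii and 6.75, 4.34 and 1.69 in Fermol cryophile. The strains were apart at both temperatures, by the high Fermol cryophile arrays at 28°C and the low S. kudriavzevii arrays at 12°C. The averaged difference of OPT2 was -3.31 (SE 0.71, limma adjusted p 0.176) and passed the threshold without Fermol cryophile 28°C replicate C, with an adjusted p of 0.0472.

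YHB1, the flavohaemoglobin that detoxifies nitric oxide, read -2.11, -1.43 and -1.82 in S. kudriavzevii against -1.04, -0.56 and -0.27 in Fermol cryophile at 12°C, and -0.58, -0.39 and -1.07 against 1.98, 3.19 and 0.27 at 28°C. Its averaged difference was -1.83 (SE 0.47). NRK1, nicotinamide riboside kinase, was -1.64 (SE 0.42), with nearly the same value at 12°C (-1.71) and 28°C (-1.57). SEN15, a subunit of the tRNA splicing endonuclease, was -1.99 (SE 0.50), mainly from 12°C (-2.83 against -1.14 at 28°C). SNF12, of the SWI/SNF chromatin remodelling complex, was -1.39 (SE 0.39) and was the only one of the 12 lower genes not called when arrays were weighted by their quality.

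The 36 genes with an unadjusted p below 0.05 at each temperature add a few that the rule above did not name, given here after their values were seen. FIG2, a cell wall adhesin of mating, differed by 2.21 at 12°C and 2.28 at 28°C, and PCL2, a cyclin, by 1.54 and 1.56. ATG12, of autophagy, had an averaged difference of 1.53 (SE 0.40), and CPR1, cyclophilin A, of 1.46 (SE 0.45). The strains did not overlap in these 4. Lower were PEX4, a peroxisomal ubiquitin-conjugating enzyme (-1.84 and -1.93), and MRX9 (-1.28 and -1.27), both with overlap at 1 or both temperatures. Of the 21 higher genes 3 were seripauperins, against 23 of all 6116 genes tested. Of the 15 lower genes 2 were COS genes, against 12 of 6116, a family considered only after COS6 was seen. Members of these families share targets and are not independent.

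The seripauperins were the gene group with the most uniform difference. All 19 listed members on the array were higher in S. kudriavzevii at 12°C and at 28°C, against 1726 of 6116 genes. An unadjusted p below 0.05 was reached by 16 of 19, against 4.64% of all genes in that direction. In 12 of 19 the medians differed at least 2-fold at both temperatures (2.84% of all genes in that direction). In 6 of 19 the strains did not overlap at either (1.24% of all genes). Their median difference was 1.21 (1.39 at 12°C and 1.02 at 28°C), against 0.05 over all genes. None passed the adjusted threshold. The list left out 4 further members, PAU8, PAU11, PAU21 and PAU22, added after values were seen, and all 23 were higher at both temperatures.

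PAU13 had the smallest p of the group. It read 2.64, 3.06 and 0.76 in S. kudriavzevii and 0.10, 0.47 and 0.38 in Fermol cryophile at 12°C, and 1.05, 0.97 and 1.15 against -0.59, -1.03 and 0.12 at 28°C. The strains were apart at both temperatures, with an averaged difference of 1.70 (SE 0.41, limma adjusted p 0.224). PAU1 read 0.23, 1.52 and 0.73 in S. kudriavzevii and -0.76, -0.62 and -0.20 in Fermol cryophile at 12°C, and 0.34, 0.83 and 0.27 against -0.85, -0.69 and -0.16 at 28°C, which gave 1.20 (SE 0.33). At the ends of the range, PAU6 had 2.88 (SE 1.06), with a Fermol cryophile value of -7.56 on replicate A at 12°C, and PAU23 had 0.39 (SE 0.49).

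**Figure D3:**
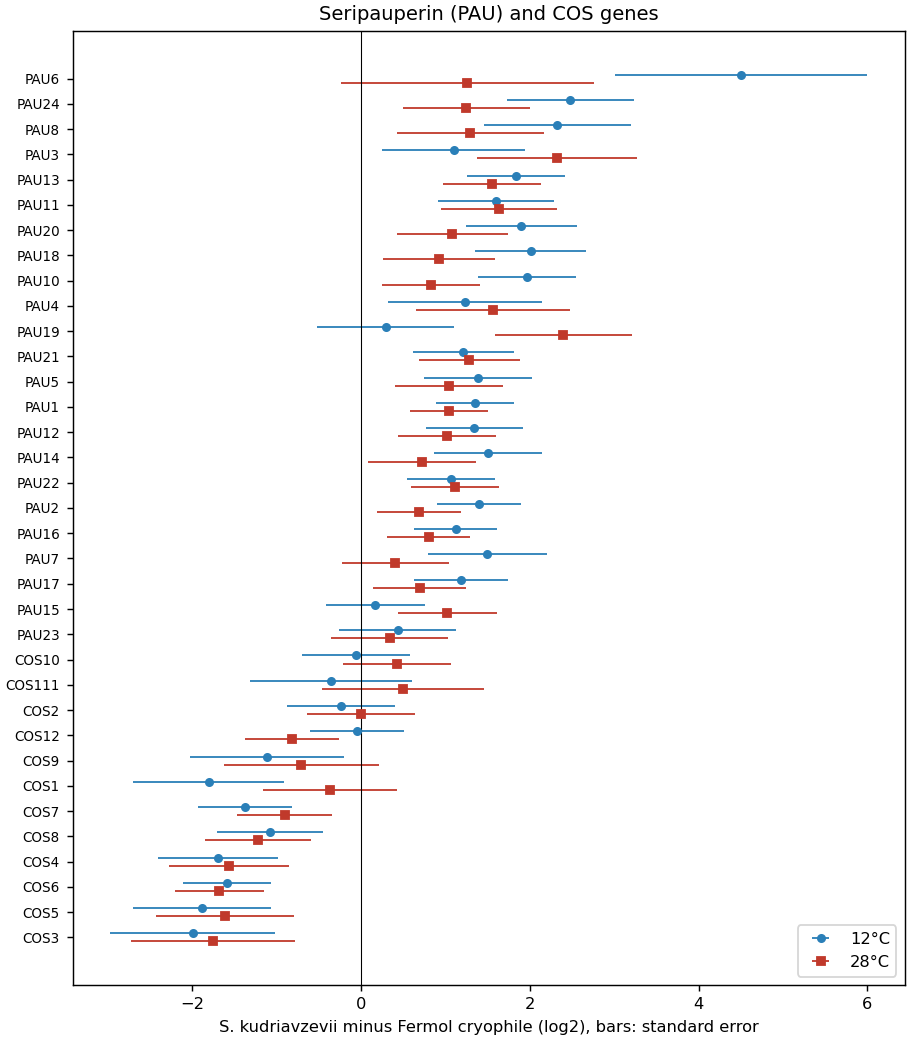
Log2 difference of S. kudriavzevii minus Fermol cryophile at 12°C (blue circles) and 28°C (red squares) for 23 seripauperin genes and 12 COS genes, with the standard error of the limma fit as bars. All 23 seripauperins lie above 0 at both temperatures, and 10 of the 12 COS genes lie below 0 at both.

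The median over the 19 seripauperins was 1.08, 1.61 and 0.55 on the S. kudriavzevii arrays at 12°C, against -0.46, -0.04 and -0.36 on those of Fermol cryophile. At 28°C it was 0.52, 0.20 and 0.79 in S. kudriavzevii, against -0.74, -0.69 and -0.25 in Fermol cryophile. For these 19, every S. kudriavzevii median lay above T73 and every Fermol cryophile median below it, that of 12°C replicate B only by 0.04. Over all seripauperins on the array, Fermol cryophile 12°C replicate B had a median of 0.01 and was thus not below T73. The other Fermol cryophile medians stayed below T73 and all S. kudriavzevii medians above it. Leaving out any of the 12 arrays kept the median difference between 1.03 and 1.45 and the number of higher members at 18 or 19. PAU genes are so alike that their spots share targets, and a count of members is not a count of independent genes.

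The COS genes, a list drawn up after the values of COS6 were seen, went the other way. Of 12, 10 were lower in S. kudriavzevii at both temperatures, against 1478 of 6116 genes. An unadjusted p below 0.05 was reached by 6 (against 4.01% of all genes in that direction). Medians were at least 2-fold lower at both temperatures in 7 (1.98% of all genes), and the median difference was -1.11. COS6 read -2.28, -2.09 and -2.37 in S. kudriavzevii and -0.70, -0.59 and -0.69 in Fermol cryophile at 12°C, and -1.80, -1.46 and -0.82 against 0.53, 0.91 and -0.47 at 28°C. The averaged difference of COS6 was -1.63 (SE 0.37, limma adjusted p 0.224), and the strains were apart at both temperatures. COS3, COS4 and COS5 had differences of -1.87, -1.63 and -1.75, while COS2 (-0.12), COS10 (0.18) and COS111 (0.07) were near 0. The median over the 12 COS genes did not overlap between the strains at 12°C, with -2.21, -2.14 and -1.62 in S. kudriavzevii and -0.83, -0.43 and -0.46 in Fermol cryophile. At 28°C it did, with -1.41, -0.46 and -0.35 against 0.56, 1.05 and -0.53.

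The asparaginase genes ASP3-1 to ASP3-4, 4 near-identical copies that act on asparagine at the cell wall, were also considered only after values were seen. All 4 were higher in S. kudriavzevii at both temperatures (1726 of 6116 over all genes), with a median of 1.87. In all 4 the strains overlapped at 12°C and were apart at 28°C. The copies share targets, so that their count is not a count of independent genes. The differences were 1.85 (SE 0.60) for ASP3-1, 1.89 (SE 0.53) for ASP3-2 and 1.23 (SE 0.45) for ASP3-3. ASP3-4 had 4.76 with an SE of 2.13 and a Fermol cryophile value of -15.86 on replicate A at 12°C.

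**Figure D4:**
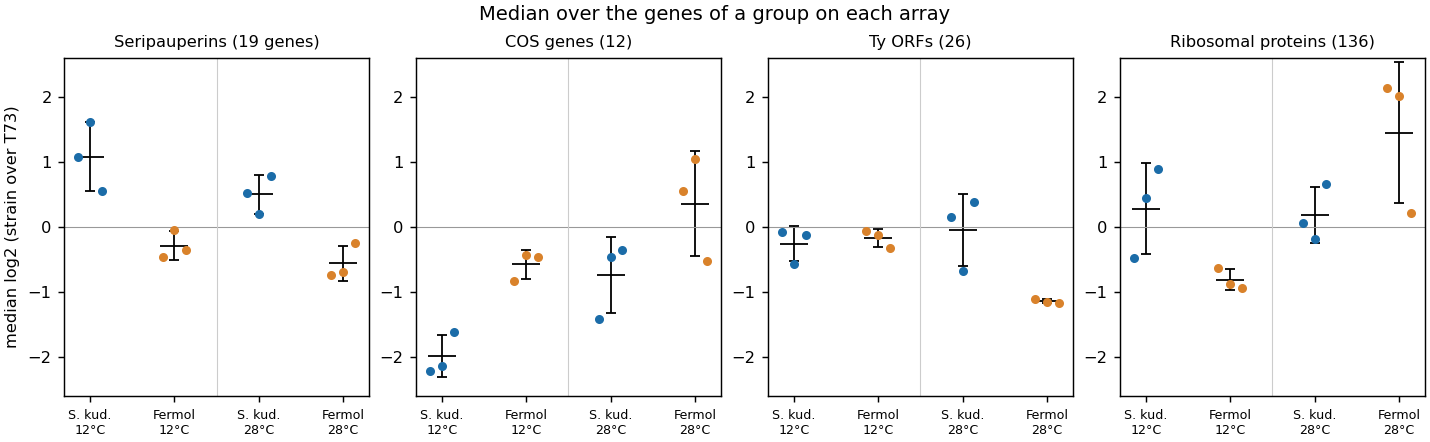
Median log2 ratio of strain over T73 over the genes of a group on each array, with the mean and the standard deviation of 3 arrays, S. kudriavzevii in blue and Fermol cryophile in orange. The seripauperins are apart between the strains at both temperatures, the COS genes at 12°C, the Ty ORFs at 28°C and the ribosomal proteins at 12°C.

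Of 38 genes for nitrogen uptake and its regulation, 3 had an unadjusted p below 0.05 in the lower direction, against 4.01% of all genes, while 2 were higher, against 4.64%. The list as a whole had a median of 0.29, against 0.05 over all genes, and 23 of 38 positive differences (52.7% of all genes). The 3 lower genes, PUT1, PUT2 and PUT4, belong to the uptake and breakdown of proline, an amino acid abundant in must. That grouping was made after their values were seen. PUT4, the proline permease, read -2.22, -2.27 and -2.66 in S. kudriavzevii and -1.63, -1.28 and -1.56 in Fermol cryophile at 12°C, and -0.19, -0.98 and -0.15 against 1.54, 1.77 and 0.15 at 28°C. Its difference was -1.24 (SE 0.40). PUT2, pyrroline-5-carboxylate dehydrogenase, was -1.27 (SE 0.40), and for both PUT2 and PUT4 the strains did not overlap at either temperature. PUT1, proline oxidase, was -2.26 (SE 0.74) with overlap at 28°C. The limma adjusted p was 0.428 for PUT2 and PUT4 and 0.464 for PUT1. ALP1, a basic amino acid permease, was 1.09 (SE 0.44).

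Of the genes of aroma synthesis, few members had a small p in the averaged difference. In the Ehrlich pathway, by which yeast turns amino acids into higher alcohols, 0 of 10 transaminase and decarboxylase genes were higher and 1 was lower at an averaged unadjusted p below 0.05 (4.64% and 4.01% of all genes), with a median of 0.49 at 12°C and -0.89 at 28°C. That gene was BAT1, the mitochondrial branched-chain transaminase, at -1.34, -1.79 and -0.98 in S. kudriavzevii and -0.70, -0.63 and -0.66 in Fermol cryophile at 12°C, and -0.43, -0.81 and 0.69 against 2.58, 2.74 and 1.25 at 28°C. BAT1 did not overlap at either temperature, with a difference of -1.54 (SE 0.51, limma adjusted p 0.475), of which -0.71 at 12°C and -2.38 at 28°C. The cytosolic transaminase BAT2 was -0.39 (SE 0.38) and the decarboxylase ARO10 0.74 (SE 0.45). Of 8 genes of ester synthesis and hydrolysis, 3 were higher at an unadjusted p below 0.05, against 4.64% of all genes. They were AYT1, an acetyltransferase, with 1.64 (SE 0.58), the alcohol acetyltransferase ATF2 with 1.01 (SE 0.43) and TIP1, a cell wall mannoprotein with esterase activity, with 0.98 (SE 0.46). For these 3 genes the strains overlapped at 1 or both temperatures. Of 8 alcohol dehydrogenases, 7 had a negative averaged difference (2890 of 6116 over all genes), with a median of -0.44. At both temperatures 4 were lower (1478 of 6116 over all genes). Leaving out 1 array moved the median between -0.82 and -0.08 and the number of higher members between 0 and 4. The highest median came without S. kudriavzevii 28°C replicate A. The 9 aldehyde dehydrogenase and acetate genes had a median of 0.12 and the 21 genes of branched-chain and aromatic amino acid synthesis one of 0.22 at 12°C and -0.84 at 28°C. In the averaged limma difference 0 of the 8 and 0 of the 9 genes had an unadjusted p below 0.05 (8.65% of all genes). At a single temperature 1 of the 8 did at 12°C (7.12% of all genes) and 1 of the 9 at 28°C (7.24%). ILV5, of branched-chain amino acid synthesis, is named in the study among genes without hybridisation for S. kudriavzevii. On the deposited arrays ILV5 read -1.25, 0.72 and -0.73 in S. kudriavzevii and -0.46, -1.20 and -1.34 in Fermol cryophile at 12°C, and -0.31, -0.44 and 1.30 against 1.44, 2.45 and 0.61 at 28°C, with overlap at both temperatures.

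In other lists, genes of small p are named, with the counts of their lists beside those of all genes. CTT1, the cytosolic catalase, read -1.91, -2.04 and -2.96 in S. kudriavzevii and -0.91, -0.67 and -0.84 in Fermol cryophile at 12°C, and -2.08, -1.47 and -1.24 against 0.69, 1.51 and -0.91 at 28°C. CTT1 differed by -1.76 (SE 0.53, limma adjusted p 0.428) with no overlap at either temperature, whereas the 27 heat shock and chaperone genes had a median of 0.30. UPC2, the activator of sterol genes, was higher by 1.18 (SE 0.40) with no overlap, beside a median of -0.03 over 31 sterol genes. GPA1, the G protein subunit of the pheromone response, was at 0.94 (SE 0.39) with no overlap. At an unadjusted p below 0.05 in the averaged limma difference, 4.64% of all genes were higher and 4.01% lower. Of the 27 heat shock and chaperone genes 2 were higher and 1 lower. Of the 31 sterol genes 1 was higher and 0 lower. Among 25 mating and haploid genes, 1 was higher and 1 lower, as among 8 galactose pathway genes. Of 25 mating and haploid genes 21 had a positive averaged difference (52.7% of all genes), with a median of 0.37. In 13 of the 25 it was positive at both temperatures (1726 of 6116 over all genes). GAL1, galactokinase, differed by 1.63 (SE 0.48) and GAL80, the repressor of the pathway, by -0.95 (SE 0.40), and the strains overlapped at 28°C in both and at 12°C in GAL80. In the averaged limma difference 0 of 18 hexose transporter, 17 glycolytic, 16 trehalose and glycogen and 33 proteasome genes reached an unadjusted p below 0.05 (8.65% of all genes). At 12°C 3 hexose transporter genes and 1 glycolytic gene did, against 7.12% of all genes.

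At single temperatures, limma called 0 of 6138 genes at 12°C (437 at an unadjusted p below 0.05, 7.12%, with 4.72% higher and 2.39% lower) and 1 of 6149 at 28°C (0.0163%, with 445 unadjusted, 7.24%, of which 3.17% higher and 4.07% lower). The called gene was YBL005W-A, an ORF of a Ty retrotransposon with many similar copies. At 28°C it stood at 2.85, 1.99 and 2.21 in S. kudriavzevii and -1.69, -2.52 and -2.22 in Fermol cryophile, a difference of 4.49 (SE 0.67, limma adjusted p 0.0233). At 12°C it stood at 0.30, 0.58 and 0.14 in S. kudriavzevii and 0.78, 0.55 and -0.34 in Fermol cryophile, a difference of 0.01. The call at 28°C was lost when any Fermol cryophile array of 28°C, or S. kudriavzevii 28°C replicate A or C, was left out, with adjusted p of 0.0685 to 0.276. It held without replicate B.

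Of the 26 Ty ORFs on the array, YBL005W-A included, 12 were higher at 12°C and 22 at 28°C, against 3561 and 2802 of 6116 genes, with medians of -0.06 at 12°C and 0.71 at 28°C. In 10 of them the difference was positive at both temperatures (1726 of 6116 over all genes). In 12 it was negative at 12°C and positive at 28°C (1076 of 6116). The median over these ORFs at 28°C was 0.15, -0.67 and 0.39 in S. kudriavzevii, against -1.11, -1.15 and -1.17 in Fermol cryophile. At 12°C it was -0.08, -0.57 and -0.13 in S. kudriavzevii, against -0.06, -0.13 and -0.32 in Fermol cryophile. The strains were thus apart at 28°C and overlapped at 12°C. The averaged difference had a median of 0.68, which was 0.05 without S. kudriavzevii 12°C replicate A and lay between 0.13 and 1.03 over the other settings. The test of the change in strain difference between temperatures called 0 of 6116 genes in limma (344 at an unadjusted p below 0.05, 5.62%), YBL005W-A included (4.48, adjusted p 0.59).

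The third strain of the series, S. uvarum, had been hybridised in the same way, and 2 of its comparisons show where the leading genes lay in it. They share arrays with the comparison above. The difference averaged over temperatures called 9 of 6092 genes (0.148%) for S. kudriavzevii minus S. uvarum and 3 of 6092 (0.0492%) for S. uvarum minus Fermol cryophile. The S. uvarum minus Fermol cryophile difference was -3.93 for CUP1-2 (limma adjusted p 0.00138), -3.48 for CUP1-1 (adjusted p 0.00982) and -2.37 for COS6 (adjusted p 0.0157). For CUP1-2, S. kudriavzevii minus S. uvarum was 1.24 (adjusted p 0.27). YEL076C, an uncharacterised ORF near a chromosome end, had a difference of 3.03 for S. kudriavzevii minus S. uvarum (adjusted p 0.0146) and of 1.96 for S. kudriavzevii minus Fermol cryophile (SE 0.48, adjusted p 0.224). The seripauperin median on the S. uvarum arrays lay between -0.78 and 0.14, and PAU13 differed by 1.92 between S. kudriavzevii and S. uvarum (adjusted p 0.0643). The COS median lay between -3.04 and -1.24 on the S. uvarum arrays and between -2.21 and -0.35 on those of S. kudriavzevii. Low COS values were thus not particular to S. kudriavzevii.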

How the data were processed

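Total RNA of cells from fermentations at 12°C and 28°C was amplified, labelled and hybridised to arrays of S288C ORFs. The authors deposited log2 ratios per ORF and array, made with GenePix Pro, a global background subtraction and normalisation of each array in Acuity. Scanner intensities were not used here, and precision is limited by how many arrays there were. The sign was turned to strain over T73: of 77 directions of change that the study's text names for the arrays, 77 had that sign after turning and 0 before. Of 6180 lines, 2 control lines were left out and lines of the same gene were averaged, leaving 6172 genes, named through the RefSeq annotation (492 lines matched none). Over the 12 arrays 1.505% of values were missing.

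All 18 arrays were fitted in limma 3.58.1 (R 4.3.3) with 1 coefficient per strain and temperature, for genes with at least 2 values in each group compared. Differences were tested two-sided with Benjamini-Hochberg adjustment over all genes tested, and called at an adjusted p below 0.05. For a difference at both temperatures the larger of both p-values was used. The script was tested on simulated data. Genes were named by rule: called genes, then the 12 of smallest p per direction with all 12 values and no overlap at either temperature, genes called at a single temperature, up to 4 of smallest p per list and in the interaction, with ORFs without annotation counted only. Members and lists were chosen with earlier results of these data known. The replicate letters did not pair samples. Alternatives changed scaling, weights, arrays, filters, low values and the fold rule.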

Additional observations from a re-analysis of the deposited data

How the results depend on the processing

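The averaged difference, with 0 genes called, gave 7 with scaled arrays, 6 with quantile normalisation, 4 with the 12 arrays alone, 4 in an additive model of strain and temperature, 3 among genes with all 12 values and 894 with array weights (478 higher, 416 lower), which weighted the 18 arrays between 0.217 and 7.484. HIS3 and YKL131W were called under scaling, quantile normalisation, the 12 arrays and the additive model. With array weights all 12 leading higher genes and 11 of 12 lower ones were called, against 478 and 416 of 6116 genes. The leading genes had been chosen by smallest p on the same arrays, so these calls are no separate evidence. Leaving out 1 array gave 0 to 1 (CUP1-2 without S. kudriavzevii 12°C replicate A, OPT2 without Fermol cryophile 28°C replicate C). At 12°C, 0 genes gave 72 with array weights and 0 to 1 without 1 array (1 without S. kudriavzevii 12°C replicate A). At 28°C, 1 gene gave 2 with arrays centred on their median, 44 scaled, 51 after quantile normalisation, 1572 weighted (643 higher, 929 lower) and 0 to 6 without 1 array, with 3 without S. kudriavzevii 12°C replicate B and 6 without S. kudriavzevii 28°C replicate B. The interaction gave 3 after quantile normalisation and 278 with array weights, and the test of both temperatures gave 1 with array weights. The 295 genes with a 2-fold difference at both temperatures were 188 with scaled arrays, 44 at 3-fold and 217 to 424 without 1 array. The cause of these changes was not tested. Same-lettered arrays share only a letter, and with the replicate block 0 genes were called on average (smallest adjusted p 0.0811) and 1 at 28°C. Over the alternatives, 0 of 3053 values of named genes were counted as reversed. For the averaged difference that count required a change of sign together with a call in the main fit or the alternative. Changes of sign without a call were not counted, and no averaged difference was called in the main fit. Signal over background was unknown.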

Other observations

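Ribosomal protein genes had opposite strain differences at the 2 temperatures. At 12°C 119 of 136 were higher in S. kudriavzevii and at 28°C 12 of 136, and 112 were higher at 12°C and lower at 28°C, against 1835 of 6116 genes overall. Their median difference was 1.03 at 12°C and -1.11 at 28°C, and 56 had an unadjusted p below 0.05 in the limma test of the change between temperatures, all in the negative direction, against 5.62% of all genes. None passed the adjusted threshold. The median over the list at 12°C was -0.48, 0.44 and 0.89 in S. kudriavzevii and -0.63, -0.87 and -0.94 in Fermol cryophile. At 28°C it was 0.06, -0.18 and 0.66 in S. kudriavzevii and 2.14, 2.01 and 0.21 in Fermol cryophile, where replicate C, the array of narrowest spread, was far below the others. Without that array the median difference at 28°C was -1.79. RPS1A had differences of 2.38 at 12°C and -1.89 at 28°C.

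Genes near chromosome ends, taken as the 15 protein-coding genes next to each end in the annotation and looked at after values were seen, made up 21 of the 69 higher genes without overlap annotated as protein-coding (30.4%) and 6 of the 57 lower ones (10.5%). Of all genes tested 437 of 5626 (7.77%) were of this kind, and seripauperins are among them. YIR042C, the last gene annotated as protein-coding at its chromosome end, differed by 2.52 (SE 0.63).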
